A study of Mus musculus with 4 samples.

Results

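The inhibitory immune checkpoint receptors described here are 10 genes of 23699 entries in a table of RNA levels from stimulated mouse B cells. They are Ctla4, Pdcd1, Lag3, Tigit, Btla, Cd160, Cd200, Cd200r1, Cd244 and Cd96, each taken as the row with that gene symbol, and each had a single row. Cd200 is the ligand of Cd200r1 and is counted here with the receptors. The cells were splenic B cells of C57BL/6 mice, held in culture with an antibody to Cd40 for 48 h, with LPS, PMA and ionomycin added for the last 5 h in all groups. The sort took B10+ cells as high for Cd1d and positive for Cd5 and Il10, and B10- cells as negative for Cd1d, Cd5 and Il10. Il10 is the anti-inflammatory cytokine interleukin 10. There are 2 cultures, and from each of them 1 B10+ and 1 B10- library, so n = 2 per subset. How many mice went into a culture is not stated in the labels.

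Checkpoint receptors are surface proteins of lymphocytes that dampen activation when they meet a ligand on another cell. Ctla4 competes with the activating receptor Cd28 for Cd80 and Cd86, and Pdcd1 (PD-1) binds Cd274 (PD-L1) and Pdcd1lg2 (PD-L2) and recruits the phosphatase Shp2. They are best known from T cells, where many of them are switched on by antigen receptor signals through the calcium-regulated factor NFAT. B cells are known above all as carriers of their ligands and of Btla, which pairs with Tnfrsf14 (HVEM).

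Promoters of Ctla4, Pdcd1, Tigit and Btla, tested receptors whose subsets did not overlap, are shown first, because NFAT is a textbook regulator of several of these receptors and ionomycin, which raises intracellular calcium, was part of the stimulation. The table of RefSeq promoters (GRCm38.p6, from 250 bases before to 50 bases after the transcription start) held 9 windows for 8 of the 10 genes, with none for Lag3 and Cd200r1. Capitals mark the NFAT core GGAAA or its reverse complement TTTCC, and the windows lie at chr1:60908775-60909074 (+ strand), chr1:94052504-94052803 (- strand), chr16:43664135-43664434 (- strand) and chr16:45224087-45224386 (+ strand).
Ctla4: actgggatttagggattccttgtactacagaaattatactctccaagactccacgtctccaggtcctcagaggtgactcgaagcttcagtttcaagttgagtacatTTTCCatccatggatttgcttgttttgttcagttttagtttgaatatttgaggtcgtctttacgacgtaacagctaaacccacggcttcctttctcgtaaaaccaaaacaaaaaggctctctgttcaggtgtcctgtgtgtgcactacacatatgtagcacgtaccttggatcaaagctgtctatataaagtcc
Pdcd1: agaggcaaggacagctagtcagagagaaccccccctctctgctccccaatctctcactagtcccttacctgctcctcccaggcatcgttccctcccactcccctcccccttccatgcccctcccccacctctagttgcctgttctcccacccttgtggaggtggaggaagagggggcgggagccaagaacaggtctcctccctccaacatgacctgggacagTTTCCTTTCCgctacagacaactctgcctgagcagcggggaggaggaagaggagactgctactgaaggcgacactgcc
Tigit: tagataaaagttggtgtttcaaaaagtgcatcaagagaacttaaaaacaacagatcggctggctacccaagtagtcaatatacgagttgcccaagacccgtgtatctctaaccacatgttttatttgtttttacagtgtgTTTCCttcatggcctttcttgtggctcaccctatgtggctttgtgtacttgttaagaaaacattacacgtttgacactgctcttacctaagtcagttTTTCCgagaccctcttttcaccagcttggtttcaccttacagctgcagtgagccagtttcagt
Btla: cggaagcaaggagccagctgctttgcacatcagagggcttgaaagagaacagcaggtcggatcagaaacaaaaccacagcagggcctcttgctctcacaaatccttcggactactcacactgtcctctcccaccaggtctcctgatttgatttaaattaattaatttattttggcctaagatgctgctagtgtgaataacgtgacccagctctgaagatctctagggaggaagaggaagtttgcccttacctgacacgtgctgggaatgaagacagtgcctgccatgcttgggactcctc
The core occurred 1 time in the Ctla4 window, 2 times in the Pdcd1 window and 2 times in the Tigit window, and the Btla window held 0 copies. Of the windows not shown, that of Cd244 held 2 copies, that of Cd96 5, those of Cd160 0 and 1, and that of Cd200 0. Cd244 thus had as many as Pdcd1 and Tigit, and Cd96 had more. Both genes were too low to be tested for a difference. No link between copies of the core and the differences was tested, and the windows shown were picked by the differences of their genes. The core is short and was present in 61.3% of 32851 promoters in the table. The AP-1 site TGANTCA, searched on both strands, was in 7.81% of all promoters, in none of the 4 windows shown, and in 1 copy in that of Cd244.

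Levels are FPKM, fragments scaled for transcript length and library size, so they can be compared between genes. Low values moved in steps of whole fragments, which put the depth at about 27600000 and 21700000 fragments in the B10+ libraries of cultures 1 and 2 and 24100000 and 32500000 in the B10- libraries. In B10+ replicate 1 19.4% of entries were at 0, in the other libraries 34.5% to 37.3%, so B10+ replicate 1 stands apart in its low values although B10- replicate 2 was deeper. Culture 2 does not use that library, and each receptor's values in it stand beside those of culture 1. Differences are on the log2(FPKM + 1) scale, B10+ minus B10-, which understates the change of low genes. Of the 10 genes, 8 reached 1 FPKM in at least 2 libraries and were tested, and Cd244 and Cd96 were not. Cd200r1 passed this filter only through the B10+ libraries. All 9 pan B cell markers, among them Ms4a1 (CD20) and Pax5, reached at least 1 FPKM in every library, as the B cell label asks.

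Pdcd1 and Ctla4 were the receptors whose rise in B10+ cells passed the blocked fit, a limma model with a term for the culture, 2 of 10 genes higher and 0 lower. Over all 10367 tested entries that fit called 0.781% higher and 0.0772% lower. Without the block limma called 0% in either direction, and the adjusted p of all 8 tested genes was 1. The cultures differed from each other by more than the subsets did (entries correlated at r = 0.965 and 0.947 within a culture and 0.840 and 0.836 within a subset), and this spread enters the fit without the block. An exact permutation test of 2 against 2 libraries cannot go below a two-sided p of 0.333. In 6 of the 10 genes both B10+ libraries lay above both B10- libraries, and in 2 (Btla and Cd244) both lay below, with the untested Cd96 and Cd244 counted. These patterns were found in 6.6% and 7.47% of all tested entries. The median difference of the 10 genes, the untested Cd244 and Cd96 included, was 0.97, with 0.89 in culture 1 and 0.75 in culture 2. Over the 8 tested genes it was 2.07, beside 0.00285 for all tested entries. The value of 2.07 is a description only, since Cd200r1 passed the filter only through the B10+ libraries.

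**Figure D1:**
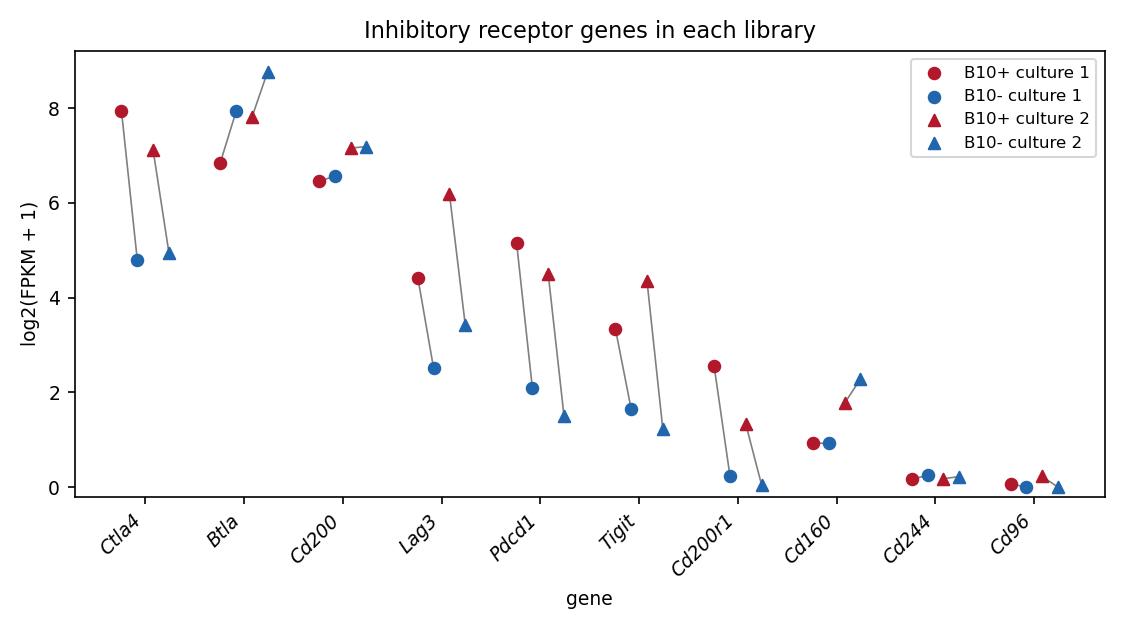
Level of each receptor gene as log2(FPKM + 1) in the 4 libraries, ordered by mean level in B10+ cells. Circles are culture 1, triangles culture 2, red B10+ and blue B10-, and grey lines join the libraries of a culture. Ctla4, Lag3, Pdcd1, Tigit and Cd200r1 slope down from B10+ to B10- in both cultures, Btla slopes up, and Cd200 is level.

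Pdcd1 lies on chromosome 1 (95934882 to 95949130, mm9) and had nearly the same gap in both cultures. It was at 34.5 and 21.6 FPKM in B10+ replicates 1 and 2, and at 3.24 and 1.82 FPKM in B10- replicates 1 and 2. These rest on about 1835 and 902 fragments against 151 and 114. The B10+ libraries were far above the B10- libraries in both cultures, by 10.7-fold and 11.8-fold. The log2 difference was 3.03 ± 0.05 (SD over 2 cultures), at an adjusted p of 0.026 in the blocked fit. Pdcd1 stood at rank 6 of 10367 by p in that fit and at rank 22 by size. It was called in all 7 fits that kept the block.

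Ctla4, also on chromosome 1 (60965869 to 60972674), was the most abundant of the receptors in B10+ cells by mean. Its level was 244 and 138 FPKM in B10+ cells of cultures 1 and 2 and 26.7 and 29.9 FPKM in B10- cells. B10- cells thus held similar levels in both cultures, while the B10+ level differed between cultures, and the groups did not overlap. The excess was 9.14-fold in culture 1 and 4.61-fold in culture 2. Exact intervals of these ratios for counting error alone, 8.63 to 9.70 and 4.38 to 4.86, did not overlap. The log2 difference was 2.66 ± 0.69 (SD over 2 cultures), at an adjusted p of 0.0463 in the blocked fit. This call was lost in 4 of the 7 fits with the block, whose adjusted p over all 7 ran from 0.00422 to 0.0635. The neighbouring genes of the same receptor family were far below Ctla4 in every library. Cd28, ending 135.7 kb before Ctla4, was at 0.690 and 0.651 FPKM in B10+ and 0.265 and 0.0545 FPKM in B10- cells. Icos, starting 62.08 kb after it, was at 0.543 and 2.08 FPKM in B10+ cells and listed at 0 in both B10- libraries. The level of Ctla4 was 354 and 212 times that of Cd28 in the B10+ libraries and 101 and 548 times in the B10- libraries.

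Lag3 binds MHC class II and lies on chromosome 6 (124854377 to 124861723). It was at 20.4 and 72.0 FPKM in B10+ cells of cultures 1 and 2, with 4.67 and 9.75 FPKM in B10- cells. Culture 2 was higher in both subsets, and within each culture the B10+ library was higher, by 4.37-fold and 7.38-fold. The log2 difference of 2.34 ± 0.60 (SD over 2 cultures) had an adjusted p of 0.0523 in the blocked fit, just above the threshold of 0.05. Its 95% interval in that fit was 1.66 to 3.02. Lag3 was called in 2 of the 7 limma fits with the block, after quantile normalization (adjusted p = 0.0128) and after median centring (0.00316). Over the 7 fits the adjusted p ran up to 0.0733. Those 2 settings also called more entries of the whole table than the main blocked fit did.

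Tigit and Cd96 compete with the activating receptor Cd226 for Pvr and other nectin-family ligands. Tigit (chromosome 16, 43648974 to 43664297) was at 9.16 and 19.4 FPKM in B10+ cells and at 2.12 and 1.34 FPKM in B10- cells. The groups did not overlap, and the gap was wider in culture 2, at 14.5-fold (counting interval 10.4 to 20.6) against 4.31-fold (3.15 to 6.05) in culture 1. The log2 difference was 2.41 ± 1.01 (SD over 2 cultures) and the adjusted p of the blocked limma fit 0.10. With the block it was 0.0331 after quantile normalization and 0.00865 after median centring. These were the 2 calls in 7 such fits, over which the adjusted p ran up to 0.149. Cd96 (chromosome 16, 46035770 to 46120361) was at 0.0489 and 0.167 FPKM in B10+ cells, about 3 and 8 fragments, and listed at 0 in both B10- libraries. Cd226 itself was at 0.0849 and 0.238 FPKM in B10+ cells and listed at 0 in B10- cells, so of these receptors for Pvr only Tigit reached 1 FPKM.

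Btla was the tested receptor with the lowest value of B10+ minus B10-. It lies on chromosome 16 (45224450 to 45253008) and was the most abundant of the 10 genes in B10- cells. It was at 114 and 223 FPKM in B10+ cells and 243 and 436 FPKM in B10- cells of cultures 1 and 2. The B10- library was 2.13-fold and 1.96-fold higher within a culture, and the highest B10+ value lay just under the lowest B10- value. The log2 difference was -1.03 ± 0.08 (SD over 2 cultures), at an adjusted p of 0.0687 in the blocked fit. With the block after median centring it was 0.0336, the sole call in 7 such fits, over which the adjusted p ran up to 0.0976. The level of Ctla4 relative to Btla was 2.14 and 0.62 in B10+ cells and 0.11 and 0.0685 in B10- cells. Cd160, the other receptor here that binds Tnfrsf14, lies on chromosome 3 (96602686 to 96633274) and was low. It was at 0.909 and 2.41 FPKM in B10+ and 0.892 and 3.86 FPKM in B10- cells, near equal in culture 1 and lower in B10+ cells in culture 2. Its log2 difference of -0.25 ± 0.37 (SD over 2 cultures) had an adjusted p of 0.578 in the blocked fit and a 95% interval of -0.78 to 0.28.

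The Cd200 pair split between its partners. Cd200 is a widely expressed surface protein that inhibits myeloid and other cells through its receptor Cd200r1. Cd200 (chromosome 16, 45382248 to 45409166) was at 86.7 and 142 FPKM in B10+ cells and 93.9 and 145 FPKM in B10- cells. Both subsets were close in each culture, and the difference of -0.07 ± 0.06 on the log2 scale (SD over 2 cultures) had a 95% interval of -0.41 to 0.27 and an adjusted p of 0.805 in the blocked fit. Cd200r1 (chromosome 16, 44765849 to 44795090) was at 4.85 and 1.51 FPKM in B10+ cells and 0.175 and 0.0327 FPKM in B10- cells. The B10- values rest on about 8 and 2 fragments and the B10+ values on about 253 and 62. The ratio was 27.6 (counting interval 13.8 to 64.8) in culture 1 and 46.3 (12.3 to 393) in culture 2, the highest ratios among the receptors with a value above 0 in B10- cells. On the log2(FPKM + 1) scale the difference was 1.8 ± 0.73 (SD over 2 cultures), at an adjusted p of 0.102 in the blocked fit. With a pseudocount of 0.1 it was 3.89. Since Cd200r1 passed the filter only through the B10+ libraries, where it is high, its difference is a description and its p is not read as support. The related genes Cd200r2, Cd200r3 and Cd200r4 stayed under 1 FPKM in every library.

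Cd244 (2B4), a receptor for Cd48 best known from NK cells, lies on chromosome 1 (173489324 to 173515447). It was at 0.119 and 0.129 FPKM in B10+ cells and 0.190 and 0.165 FPKM in B10- cells, on about 12 and 11 fragments against 17 and 20. Counting intervals of the ratio, 0.269 to 1.37 and 0.357 to 1.81, span equality in both cultures.

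**Figure D2:**
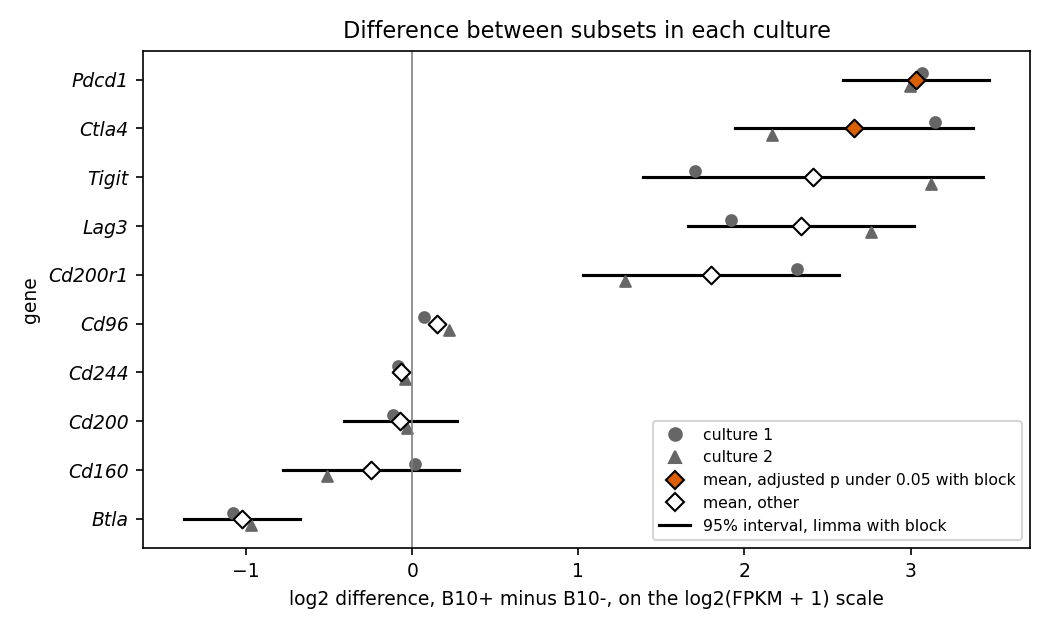
Difference B10+ minus B10- on the log2(FPKM + 1) scale for each receptor gene. Circles and triangles are cultures 1 and 2, diamonds their mean, orange where limma with the block gave an adjusted p under 0.05, and bars the 95% interval of that fit for the 8 tested genes. Pdcd1 at 3.03 has the closest pair of points among the genes with a mean over 1, and Btla at -1.03 is the only tested gene whose interval lies wholly below 0.

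The order of levels differed between the subsets. In B10+ cells the means ran from Ctla4 (191 ± 75.2 FPKM), Btla (168 ± 76.6 FPKM) and Cd200 (114 ± 38.9 FPKM) to Lag3 (46.2 ± 36.5 FPKM), Pdcd1 (28.0 ± 9.13 FPKM) and Tigit (14.3 ± 7.24 FPKM) (SD, n = 2 for each). Ctla4, Btla and Cd200 overlapped with their neighbours in this order, as did Lag3 with Pdcd1, while Cd200 lay above Lag3 and Pdcd1 above Tigit in every library. In B10- cells Btla (340 ± 137 FPKM) came first, followed by Cd200 (119 ± 36.1 FPKM), Ctla4 (28.3 ± 2.25 FPKM) and Lag3 (7.21 ± 3.59 FPKM) (SD, n = 2 for each), with no overlap between neighbours. Pdcd1, Cd160 and Tigit followed in B10- cells at means of 2.53, 2.37 and 1.73 FPKM, where Pdcd1 overlapped with Cd160 and Cd160 with Tigit. Thus 6 of the 10 genes were at 1 FPKM or more in all 4 libraries.

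Tigit, Cd200r1, Btla, Cd200 and Cd96 share a stretch of chromosome 16, which the choice of genes did not use. From the left end of Tigit to the right end of Cd96 (43648974 to 46120361, mm9) it spans 2.47 Mb and 35 entries of the table. Along it Tigit and Cd200r1 were higher in B10+ cells, Btla was lower and Cd200 was close to equal. The other 16 tested entries had a median log2 difference of -0.01 (-0.0116), ranging from -0.75 for Plcxd2 to 1.01 for Ccdc80. Of these 16, 5 were higher and 5 lower in both cultures, against 33.4% and 31.8% of all tested entries. With the block 0 of them were called, beside 0.781% higher and 0.0772% lower of all tested entries. Signs along the interval were thus mixed. No other entry of the table overlapped any of the 10 loci.

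**Figure D3:**
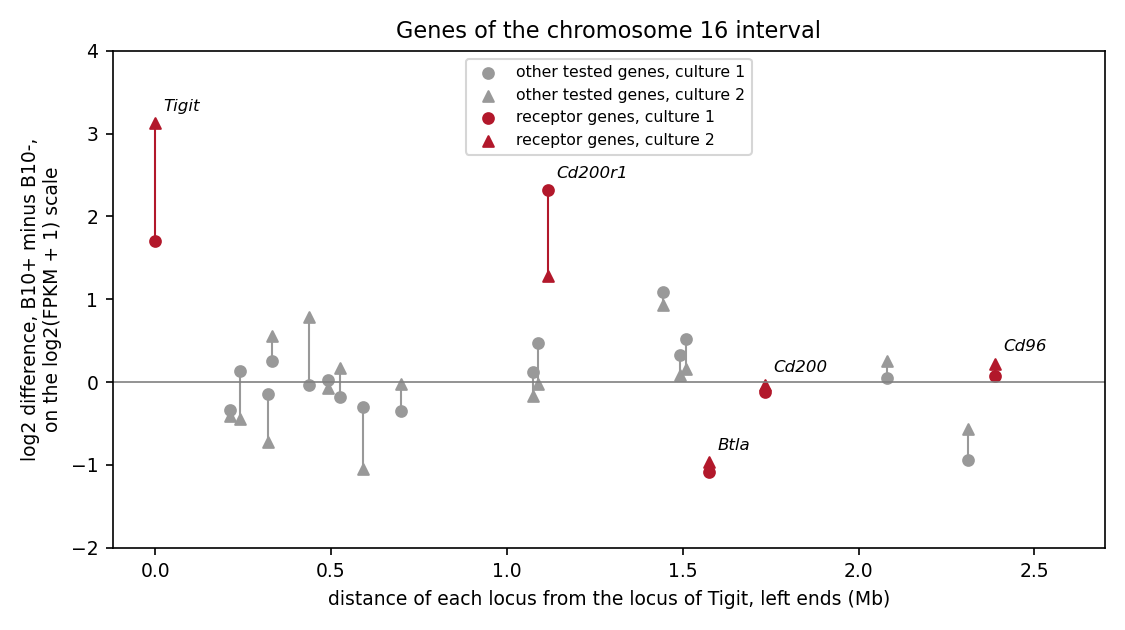
Difference B10+ minus B10- on the log2(FPKM + 1) scale for the receptor genes (red) and the other 16 tested genes (grey) of the chromosome 16 interval, by distance from the left end of Tigit in Mb. Circles are culture 1, triangles culture 2, and lines join the cultures. Tigit and Cd200r1 lie above 1 in both cultures, Btla near -1, and the grey genes, averaged over the cultures, between -0.75 and 1.01.

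The ligands of these receptors other than Cd200, 16 genes in a list chosen for their binding partners, did not pass limma with or without the block. The blocked fit called 0.781% of all tested entries higher and 0.0772% lower. Of 12 tested, 9 were higher and 3 lower in both cultures, against 33.4% and 31.8% of all tested entries. The 9 include Tnfrsf14, whose difference in culture 1 was only 0.00077. The median difference of the 12 tested ligands was 0.46. The class II genes that Lag3 binds were the most abundant. H2-Aa was at 1232 and 784 FPKM in B10+ and 945 and 611 FPKM in B10- cells, and the differences of H2-Aa, H2-Ab1 and H2-Eb1 were 0.37, 0.37 and 0.55 (blocked limma, adjusted p = 0.359, 0.364 and 0.231). The partners of Ctla4 went apart. Cd80 was at 36.9 and 32.6 FPKM in B10+ and 13.5 and 1.34 FPKM in B10- cells, while Cd86 was at 111 and 292 FPKM in B10+ and 216 and 418 FPKM in B10- cells. Cd80 was higher and Cd86 lower in B10+ cells of each culture, with differences of 2.61 ± 1.74 and -0.73 ± 0.30 (SD, 2 cultures; blocked limma, adjusted p = 0.198 and 0.187). Both ligands of Pdcd1, Cd274 and Pdcd1lg2, differed by -0.79 each (-1.18 and -0.41 in cultures 1 and 2 for Cd274, -1.01 and -0.56 for Pdcd1lg2), opposite in sign to their receptor (blocked limma, adjusted p = 0.251 and 0.201). Tnfrsf14, the partner of Btla and Cd160, was at 10.5 and 24.1 FPKM in B10+ and 10.5 and 22.7 FPKM in B10- cells, level within each culture. Btla was 10.9 and 9.24 times as abundant as Tnfrsf14 in the B10+ libraries and 23.2 and 19.2 times in the B10- libraries. Tnfsf14 (LIGHT), a further ligand of Tnfrsf14, and Lgals3 (galectin-3), which can bind Lag3, differed by 1.61 (1.29 and 1.93 in cultures 1 and 2) and 1.97 (1.72 and 2.23; blocked limma, adjusted p = 0.0765 and 0.0502). Cd48, the ligand of Cd244, was at 100.1 and 82.8 FPKM in B10+ and 62.7 and 41.8 FPKM in B10- cells, and Pvr at 12.5 and 16.4 against 11.0 and 8.25 FPKM. Fgl1, a liver-derived ligand of Lag3, was listed at 0 in every library.

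**Figure D4:**
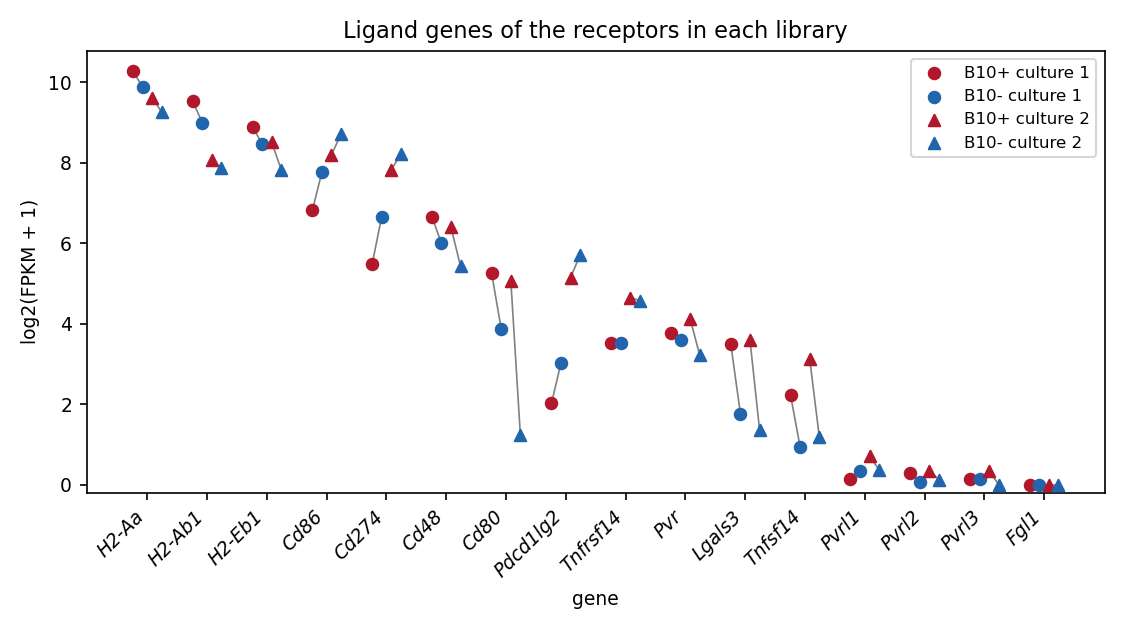
Level of each ligand gene as log2(FPKM + 1) in the 4 libraries, ordered by mean level in B10+ cells. Circles are culture 1, triangles culture 2, red B10+ and blue B10-, and grey lines join the libraries of a culture. The class II genes are the highest, Cd80 is far higher in B10+ than in B10- cells of culture 2 (32.6 against 1.34 FPKM), and Cd86, Cd274 and Pdcd1lg2 are lower in B10+ cells in both cultures.

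Among 13 genes that carry the receptors' signals 10 were tested, of which 1 rose with the block and 0 fell, where the same fit called 0.781% and 0.0772% of all tested entries. It was Sh2d1b1 (EAT-2), an adaptor that binds the tails of Cd244 and its relatives. Sh2d1b1 was at 14.1 and 6.83 FPKM in B10+ and 2.28 and 0.800 FPKM in B10- cells. It differed by 2.16 ± 0.06 on the log2 scale (SD, 2 cultures; blocked limma, adjusted p = 0.0304). The related adaptor Sh2d1a (SAP) was at 0.149 and 0.320 FPKM in B10+ cells and listed at 0 in B10- cells. Of the phosphatases that the receptors recruit, Ptpn6 (Shp1) was at 83.2 and 9.26 FPKM in B10+ and 109.5 and 6.32 FPKM in B10- cells of cultures 1 and 2. The cultures differed far more than the subsets, and the difference between subsets was -0.39 in culture 1 and 0.49 in culture 2. Inpp5d (Ship1) and Ptpn11 (Shp2) also had opposite signs in the cultures, at -0.29 and 0.46 and at -0.20 and 0.07. The adjusted p of Ptpn6, Ptpn11 and Inpp5d was 0.942, 0.858 and 0.886 in the blocked limma fit. Fyn, a kinase, was at -0.40 and 0.43, while Csk, a kinase that restrains it, was at 0.40 and 0.29 and Ppp2ca, a phosphatase subunit, at 0.14 and 0.06. Of 4 genes that move Ctla4 between the surface and vesicles or bind it there, Lrba, Ap2m1 and Rab11a had mean differences of 0.04, 0.22 and 0.13 with 0 calls, and Trat1 was under 1 FPKM throughout.

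Of 16 factors that control these receptors in T cells 9 were tested, with a median difference of -0.11, and 0 passed with or without the block. With 0.781% of all tested entries called higher, 0 of 9 says little about the factors. Batf and Irf4, both needed for lymphocyte effector programmes, were the most abundant. Batf differed by -0.07 and -0.43 in cultures 1 and 2 and Irf4 by 0.18 and 0.06. Nfatc1 was at 11.1 and 32.0 FPKM in B10+ and 11.0 and 36.1 FPKM in B10- cells, a difference of -0.08 at an adjusted p of 0.821 in the blocked fit. Nr4a1, an early target of antigen receptor signals, differed by -1.61 and -0.63 in cultures 1 and 2 and Prdm1 (Blimp-1) by 1.74 and 1.39 (blocked limma, adjusted p = 0.205 and 0.0583). Tox, Eomes, Maf, Tcf7 and Foxp3 stayed under 1 FPKM in all 4 libraries.

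Of 20 T cell markers, 5 were tested and 0 were called with or without the block. The blocked fit called 0.781% of all tested entries higher and 0.0772% lower. In 14 of the 20 both B10+ libraries lay above both B10- libraries and in 0 below, beside 6.6% and 7.47% of all tested entries. Most of the 14 were too low to be tested, so those shares, taken over tested entries, come from an unlike set. B10+ replicate 1 also had fewer entries at 0 (19.4%) than the other libraries (34.5% to 37.3%). The summed level of the 20 markers was 40.0 and 34.1 FPKM in B10+ and 21.1 and 15.1 FPKM in B10- cells. It was carried largely by Cd2, Lck, Il7r and Lat. Cd2 was at 20.3 and 10.3 FPKM in B10+ and 5.24 and 2.93 FPKM in B10- cells (blocked limma, adjusted p = 0.0514). In B10- cells Cd3e, Cd3g, Cd4, Cd8b1, Bcl11b and Themis were listed at 0 in both libraries, where Ctla4 was at 26.7 and 29.9 FPKM. In B10+ cells Cd3e was at 0.0257 and 0.298 FPKM, Cd4 at 0.168 and 0.101 FPKM, Cd3g at 1.14 and 0.245 FPKM and Cd8b1 at 0.863 and 3.23 FPKM. The part of T cell RNA in the higher levels of the receptors was not tested. In bulk samples fewer cells of a type and less RNA per cell cannot be told apart.

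Markers of other cells gave a mixed picture. Of 10 NK cell markers Ncr1, Klre1 and Cd7 were listed at 0 in every library, and the list summed to 24.2 and 10.5 FPKM in B10+ and 4.65 and 1.44 FPKM in B10- cells. Il2rb, a receptor chain for interleukins 2 and 15, made up most of that sum and rose (blocked limma, adjusted p = 0.0307). This was 1 call among 2 tested markers of the list. The same fit called 0.781% of all tested entries higher and 0.0772% lower, so the counts of calls in these short lists say little. Il2rb was at 22.0 and 7.95 FPKM in B10+ and 3.76 and 1.05 FPKM in B10- cells. Gzmb, the other tested marker of this list, was at 1.62 and 2.29 FPKM in B10+ and 0.121 and 0.113 FPKM in B10- cells. It passed the filter only through the B10+ libraries. The other 8 stayed under 1 FPKM in all 4 libraries, and of these Prf1 was lower in B10+ cells of both cultures. The 12 macrophage and dendritic cell markers summed to 40.1 and 158.8 FPKM in B10+ and 42.5 and 101.8 FPKM in B10- cells, and 0 of 4 tested were called. Mpeg1 made up most of the culture 2 sums, with 148.6 FPKM in the B10+ and 95.6 FPKM in the B10- library, and Flt3 was at 20.9 and 26.7 FPKM in B10+ and B10- cells of culture 1. Emr1 (F4/80) was at 2.58 and 2.55 FPKM in B10+ and 0.836 and 0.220 FPKM in B10- cells, with no overlap, and Cd68 at 3.46 to 7.55 FPKM with overlap. Of the 12 markers 7, among them Csf1r, Lyz2 and Fcgr1, stayed under 1 FPKM in all 4 libraries. The 6 plasma cell markers summed to 617 and 664 FPKM in B10+ and 488 and 599.5 FPKM in B10- cells, mostly Irf4, again with 0 calls. These sums mask the less abundant markers. Of 5 tested, 4 were higher in both cultures and 0 lower, against 33.4% and 31.8% of all tested entries. Log2 differences in cultures 1 and 2 were 1.59 and 3.39 for Igj, 1.74 and 1.39 for Prdm1, and 0.39 and 0.44 for Xbp1. Their adjusted p in the blocked limma fit was 0.13, 0.0583 and 0.271. Sdc1 had opposite signs, -0.24 and 0.07. The part of these cells in the receptor values was not tested either.

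A search for nearest profiles left out histone, microRNA and snoRNA entries and provisional symbols such as Gm and Rik. Nearer entries of those kinds would therefore not appear. Among the rest, the genes whose profile over the 4 libraries lay nearest to the called receptors were found by Euclidean distance between mean-centred log2(FPKM + 1) values. For Pdcd1 they were Perp (a membrane protein induced by p53), Tpbg and Timd2 (a Tim-family receptor), at distances of 0.308, 0.406 and 0.497, where the median over 9268 entries was 3.14. Perp was at 12.1 and 7.21 FPKM in B10+ and 0.894 and 0.293 FPKM in B10- cells. For Ctla4 they were Cdkn2a (which encodes cell cycle inhibitors), Perp and Slc7a7 (an amino acid transporter), at 0.506, 0.516 and 0.583, against a median of 2.83. With 4 libraries such likeness says only that these genes shared the gap between subsets and its size in each culture.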

How the data were processed

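RNA was measured in 4 libraries of sorted mouse B cells, 2 per subset. A further marker of the sort is not reported here. Per the labels, ribosomal RNA was depleted from Trizol-extracted RNA. The authors deposited 1 table of FPKM values with mm9 loci. The submitters' processing notes list, with no roles, mm9, Cufflinks 2.1.1, TopHat 1.3.2, DESeq and bcl2fastq 1.8.4. The annotation, the use of strand and the handling of multiply mapped reads: not given in the sources used here.

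Starts of loci are printed with 1 added. The worth of 1 fragment was read from the lowest FPKM steps of genes with a single GENCODE M21 transcript over 1000 bases. Between 59.0% and 64.6% of values up to 4 fragments lay within 0.1 of a whole number (20% if evenly spread). Fragments behind a value use the longest RefSeq-linked coding transcript, and are estimates. Intervals (exact, 95%) cover counting error only.

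Entries with at least 1 FPKM in 2 libraries (10367) were tested as log2(FPKM + 1) with limma-trend (limma 3.58.1, R 4.3.3), two-sided, Benjamini-Hochberg adjusted over all of them, threshold 0.05. The fit chosen first had no culture term. The labels say that each culture gave 1 library of each subset, so a fit with a replicate block for culture, called the blocked fit, is given beside it. Within a culture, the deviations of entries from their group means correlated at 0.865. The blocked fit has 1 residual degree of freedom, so its errors rest mostly on the spread estimated over all entries. Scripts were tested on simulated data. Alternatives changed the pseudocount, filter, scaling, variance trend, loci and libraries.

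The 10 genes and all lists were chosen with earlier results of these data known. Named genes were the 10, those of each list past the threshold in either fit and the 4 highest of each list. The 3 nearest profiles of called genes, among the entries searched, were also named. Others were chosen after their values were seen.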

Additional observations from a re-analysis of the deposited data

How the results depend on the processing

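Without the block, 0 entries were called in either direction, with 109 higher and 9 lower at an unadjusted p under 0.05. With the replicate block by culture the counts of entries higher and lower in B10+ cells were 81 and 8. With the block they were 53 and 7 with a pseudocount of 0.1, 40 and 5 unfiltered, 62 and 9 with at least 5 FPKM in 2 libraries, 167 and 23 after quantile normalization, 328 and 60 after median centring, and 57 and 4 without the trend. Without the block 1 lower entry was called with a pseudocount of 0.1 and 1 after median centring. With a library left out and no block, 1 to 130 entries were higher and 3 to 14 lower. Such fits take in the difference between cultures.

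The median log2 difference of the tested receptors was 2.07, a description only, since Cd200r1 entered it through its B10+ values. It was 2.59 with a pseudocount of 0.1, 0.97 with no filter, which brings in Cd244 and Cd96, 2.38 with at least 5 FPKM and 1.99 after quantile normalization, each with or without the block. It was 1.81 in culture 1 and 1.73 in culture 2 alone (a setting added after seeing the data), and 1.68 to 1.96 with a library left out.

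With the block, Pdcd1 was called in 7 of 7 fits, Ctla4 in 3, Lag3 and Tigit in 2 of 7 each, Btla in 1 of 7, and Cd160 and Cd200 in none. Cd200r1 passed the threshold in 2 of 6, with a pseudocount of 0.1 and after median centring. These are not read as support, since Cd200r1 passed the filter only through the B10+ libraries. Ctla4 had an adjusted p of 0.0557, 0.0635, 0.05 and 0.0632 with a pseudocount of 0.1, no filter, at least 5 FPKM and no trend. Without the block the sole call was Pdcd1 with B10- replicate 1 left out (0.0417). Cd160 and Cd200 changed sign without B10+ replicate 1 (0.17 and 0.28) and without B10- replicate 2 (0.43 and 0.24), and with a library left out ranged from -0.93 to 0.43 and from -0.42 to 0.28. The cause was not tested.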
